A study of Mus musculus with 12 samples.

Results

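The copines are a family of cytosolic proteins that bind phospholipid membranes when calcium rises. A copine carries a pair of C2 domains, which dock on acidic phospholipids in the presence of calcium, followed by a domain related to the von Willebrand factor A domain of integrins, which binds other proteins. Copines have been studied as links between calcium signals and proteins at the membrane, and Cpne1 has been reported to repress NF-kB, a regulator of inflammatory genes in macrophages, by acting on its p65 subunit. The members described are the 4 genes Cpne1, Cpne2, Cpne3 and Cpne8 of the 55401 gene IDs in the deposited count table, taken by symbol. Cpne8 and its paralogues were chosen by their measured values in this same comparison of ages, so their differences between the groups are given as a description, with no test. The table holds 9 copine genes in all, and 3 of the 4 members (Cpne2, Cpne3 and Cpne8) passed edgeR's filter on low counts, as did 12620 genes of the table.

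RNA was measured by bulk sequencing in macrophages grown out of mouse bone marrow, with 6 libraries from old mice aged 12 months and 6 libraries from young mice aged 8 weeks. Both groups were of the C57BL6 background, and both were cultured with 20 ng/mL of macrophage colony-stimulating factor (M-CSF) until day 7, so no group was left without the factor. No genotype or other agent is given in the labels for these 12 libraries. The labels call the replicates biological without saying whether each had its own animal, so a p-value here reflects the spread among libraries, which may be technical in part. Assigned counts ranged from 19345587 to 22356812 in the old and from 22150081 to 25169045 in the young libraries. All 14 macrophage markers passed the filter, and their summed level was 39970 to 53870 CPM (counts scaled to a common library total) in the old and 32470 to 57090 CPM in the young libraries. In bulk samples, fewer cells of a type and less RNA per cell cannot be told apart.

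The sequences just upstream of the members' starts are shown because Cpne8 and Cpne2 lie at very different levels in these cells. RefSeq (GRCm38.p6) gave an upstream window for 3 of the 4 members, Cpne8, Cpne2 and Cpne1. Each window below runs from 250 to 51 bases before the start annotated in RefSeq, which need not be the gene end given in the count table, 5′ to 3′ on the strand of the gene, and capitals mark matches to the motifs searched. The window of Cpne8 is chr15:90679439-90679638 on the minus strand, that of Cpne2 is chr8:94532778-94532977 on the plus strand and that of Cpne1 is chr2:156112016-156112215 on the minus strand.
Cpne8: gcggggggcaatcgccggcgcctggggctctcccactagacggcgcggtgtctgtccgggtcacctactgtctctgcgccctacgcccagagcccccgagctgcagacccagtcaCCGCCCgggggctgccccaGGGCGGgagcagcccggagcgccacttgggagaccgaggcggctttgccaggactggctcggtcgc
Cpne2: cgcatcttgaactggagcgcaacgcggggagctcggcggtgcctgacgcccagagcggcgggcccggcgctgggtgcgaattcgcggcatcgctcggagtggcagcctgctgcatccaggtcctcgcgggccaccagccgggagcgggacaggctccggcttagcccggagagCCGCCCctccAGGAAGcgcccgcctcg
Cpne1: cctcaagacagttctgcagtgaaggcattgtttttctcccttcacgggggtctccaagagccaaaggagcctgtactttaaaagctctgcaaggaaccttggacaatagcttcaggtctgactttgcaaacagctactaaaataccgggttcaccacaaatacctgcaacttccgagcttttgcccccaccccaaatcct
The motifs searched, on both strands, were TATAAA (the TATA box), CCAAT (the CAAT box), GGGCGG (the GC box), AGGAAG (a form of the core bound by PU.1 and other ETS factors) and CACGTG (an E-box). The window of Cpne8 held 2 matches to GGGCGG. The window of Cpne2 held 1 match to GGGCGG and 1 to AGGAAG, and the window of Cpne1 held no match to any of the 5. No marked match overlapped another. Among 32851 such windows of 27025 genes, 24.6% held GGGCGG, 23.9% AGGAAG, 28.4% CCAAT, 9.14% TATAAA and 4.34% CACGTG. The windows of Cpne8 and Cpne2 were alike in base content, with 74.0% G or C in each, against 48.5% in that of Cpne1 and a median of 51.5% over all windows. The dinucleotide CG occurred 20 times in the window of Cpne8 and 26 times in that of Cpne2, and 90.5% and 95.9% of all windows held fewer. It occurred 3 times in the window of Cpne1, near the median of 4.

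Cpne8 was the copine that stood apart by age, at a low level in both groups and several times higher in old macrophages. In the count table Cpne8 (ENSMUSG00000052560) spans chr15:90487482-90679432 on the minus strand of GRCm38, with 4164 exon bases, none of them shared with another annotated gene. Its raw counts were 85, 111, 102, 96, 55 and 90 in old replicates 1 to 6. In young replicates 1 to 6 they were 12, 22, 42, 16, 6 and 26. The lowest old library was above the highest young one, and this closest pair was old replicate 5 and young replicate 3. Scaled to library size, Cpne8 was at 3.97, 5.16, 4.53, 4.49, 2.48 and 4.66 CPM in old replicates 1 to 6. It was at 0.496, 0.972, 1.84, 0.719, 0.260 and 1.05 CPM in young replicates 1 to 6. The mean was 4.22 ± 0.931 CPM in old and 0.890 ± 0.551 CPM in young libraries (SD, n = 6 each), a ratio of 4.74. The edgeR fit over all genes gave a log2 fold change of 2.24 with a standard error of 0.35 for old over young, the 3rd highest of the 12620 genes. In all, 15 genes (0.119% of those tested), Cpne8 among them, had every old value above the young ones, and 11 genes (0.0872%) had every old value below them.

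**Figure D1:**
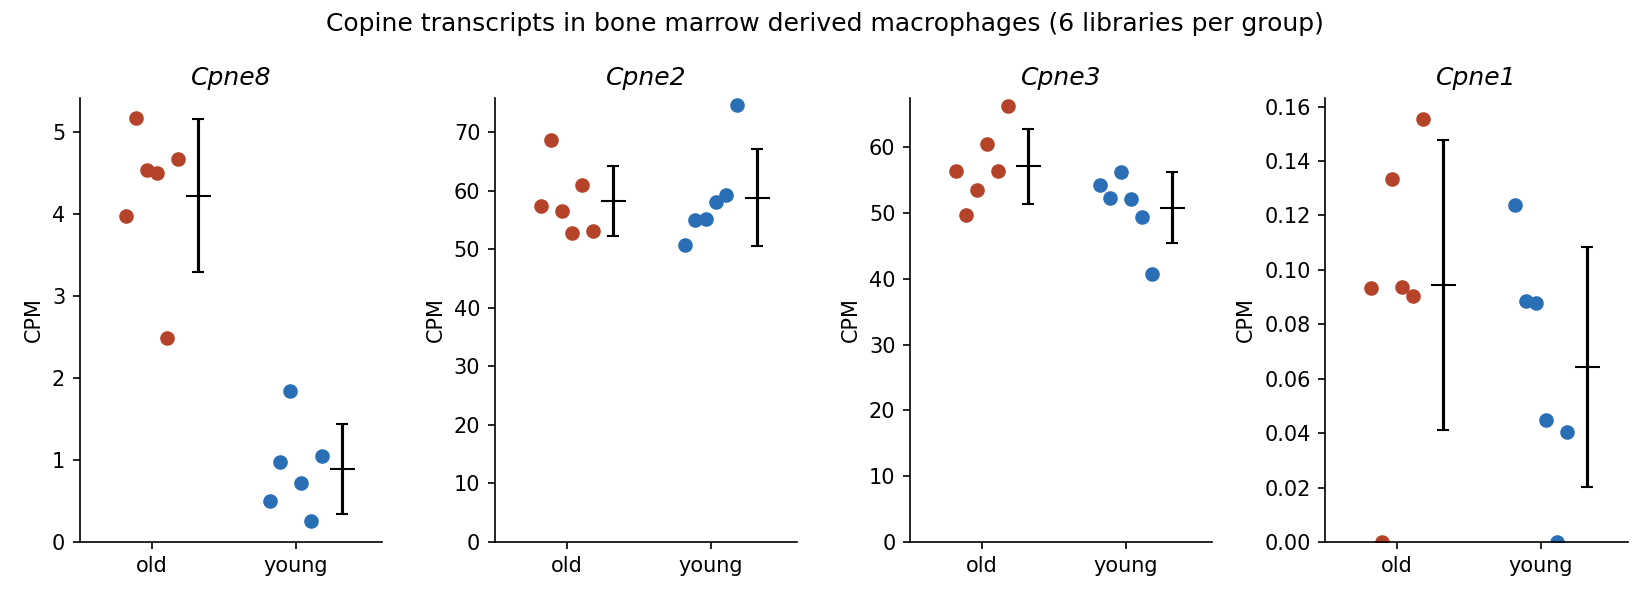
Level of Cpne8, Cpne2, Cpne3 and Cpne1 in each library, in CPM on linear axes that start at 0 and differ between panels. Points are libraries (6 old, 6 young) and bars are the mean and SD; old and young points are separate for Cpne8 (2.48 to 5.16 CPM in old, 0.260 to 1.84 CPM in young) and overlap for the other members.

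The low counts limit how closely single libraries can be placed. The 95% Wilson interval, which covers counting error only, was 1.91 to 3.23 CPM in old replicate 5 and 1.36 to 2.49 CPM in young replicate 3, so these libraries were not separate at this depth. In the lowest young library, replicate 5, it was 0.119 to 0.567 CPM, and in the highest old library, replicate 2, it was 4.29 to 6.22 CPM. Counts of Cpne8 were even in 3 of 6 old and in 6 of 6 young libraries. Among 2007 genes within 2-fold of its old level, 65.0% of counts in old libraries were even. Among 1902 genes within 2-fold of its young level, 70.4% of counts in young libraries were even and 28.0% of genes had only even counts there. Counting both mates of a fragment gives even counts. The recorded command did not count pairs as one fragment, so the intervals are too narrow. With counts divided by 2 and rounded, an alternative chosen after seeing the data, the log2 fold change was 2.24 with a standard error of 0.33. Over both ages together, the SD of Cpne8 within groups was 0.655 on the log2 CPM scale. The median was 0.378 over 1767 genes of like mean level over all 12 libraries. By age, the SD of Cpne8 was 0.367 in old and 0.851 in young libraries. That median is for genes matched at 2.55 CPM. Cpne8 was at 4.22 CPM in old and 0.890 CPM in young libraries, so the median suits neither age alone. No SD was taken over genes matched at the level of either age. Young counts were 6 to 42, and the part of counting error in the young SD was not tested.

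In old and young macrophages alike, Cpne2 and Cpne3 made up nearly all copine counts as deposited. These counts leave out reads that fall on Cpne1 and another gene at once, so the share of Cpne1 in copine RNA is not known. Of all copine counts in a library, Cpne2 held 48.6 ± 4.56% in old and 53.0 ± 5.91% in young libraries, and Cpne3 held 47.7 ± 4.49% in old and 46.1 ± 5.81% in young libraries (SD, n = 6 each). The share of Cpne8 was 3.52 ± 0.759% in old and 0.796 ± 0.478% in young libraries. Levels per kilobase of exon can be compared between genes. Of the 3 members that passed the filter, Cpne2 came first at 18.2 ± 1.85 CPM per kb in old and 18.4 ± 2.59 CPM per kb in young libraries. Cpne3 followed at 8.01 ± 0.803 CPM per kb in old and 7.13 ± 0.763 CPM per kb in young libraries. Cpne8 was at 1.01 ± 0.224 CPM per kb in old and 0.214 ± 0.132 CPM per kb in young libraries. The 3 genes kept this order in every library with no overlap between neighbours. Over all libraries, the mean level per kilobase was above that of 79.98% of the genes that passed the filter for Cpne2, 61.1% for Cpne3 and 14.5% for Cpne8.

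Cpne2, a broadly expressed copine, did not separate the ages. Cpne2 (ENSMUSG00000034361) spans chr8:94532990-94570531 on the plus strand, with 3200 exon bases, none shared with another gene. Its counts were 1230, 1476, 1271, 1128, 1350 and 1026 in old replicates 1 to 6, and 1228, 1244, 1257, 1291, 1371 and 1846 in young replicates 1 to 6. Its level was 58.2 ± 5.92 CPM in old and 58.8 ± 8.30 CPM in young libraries (SD, n = 6 each), and the log2 fold change was -0.01 with a standard error of 0.09. The ranges overlapped almost fully, at 52.7 to 68.7 CPM in old and 50.8 to 74.6 CPM in young libraries. The highest library of each age was old replicate 2 and young replicate 6.

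Cpne3, whose product binds the receptor ErbB2 in human breast cancer cells, overlapped between the ages too. Cpne3 (ENSMUSG00000028228) spans chr4:19519254-19570108 on the minus strand, with 7131 exon bases, none shared with another gene. Its counts were 1208, 1068, 1204, 1294, 1247 and 1278 in old replicates 1 to 6, and 1313, 1182, 1282, 1160, 1141 and 1008 in young replicates 1 to 6. The level was 57.1 ± 5.72 CPM in old and 50.8 ± 5.44 CPM in young libraries (SD, n = 6 each), with a log2 fold change of 0.17 and a standard error of 0.09. The ranges were 49.7 to 66.2 CPM in old and 40.8 to 56.2 CPM in young libraries. The lowest library of each age was old replicate 2 and young replicate 6, where Cpne2 was highest. Both genes varied about as much within groups as others of their level, with an SD on the log2 CPM scale of 0.168 for Cpne2 and 0.154 for Cpne3, against medians of 0.159 and 0.160 for genes of like level.

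Cpne1, the copine linked to NF-kB, was nearly without counts, at 2, 0, 3, 2, 2 and 3 in old replicates 1 to 6 and 3, 2, 2, 1, 0 and 1 in young replicates 1 to 6. The total was 21 counts in 12 libraries, which did not pass the filter, and neither age stood apart. Where the count was 0, the limit that 3 independent counts set was 0.140 CPM in old replicate 2 and 0.130 CPM in young replicate 5. It is too low where both mates of a fragment are counted. These counts cannot be read as the level of the gene. Cpne1 (ENSMUSG00000074643) spans chr2:156071842-156111965 on the minus strand, and 3789 of its 4507 exon bases (84.1%) are also exon of another annotated gene. Such an overlap of at least 80% was found for 1734 of the 55401 genes of the table (3.13%). The overlap is with Gm28036 (ENSMUSG00000098950) for 3755 bases and with Rbm12 for 404 bases, both on the same strand. The transcripts of Gm28036 are tagged as readthrough in the GENCODE M21 annotation, all of its 5823 exon bases are shared with other genes, and it had 0 counts in all 12 libraries. By sequence, 72.4% of the 50-base stretches of Cpne1 transcripts also occur in Gm28036 transcripts. The deposited counts leave out reads that fall on more than 1 gene, which made up 4.33 to 4.90% of alignment records in old and 4.57 to 5.08% in young libraries, and only 718 exon bases of Cpne1 are free of overlap. Rbm12, which encodes an RNA-binding protein, kept 4473 unshared exon bases and was at 11.9 ± 1.31 CPM in old and 12.7 ± 1.61 CPM in young libraries (SD, n = 6 each), with a log2 fold change of -0.09. How many ambiguous reads came from Cpne1 was not tested.

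**Figure D2:**
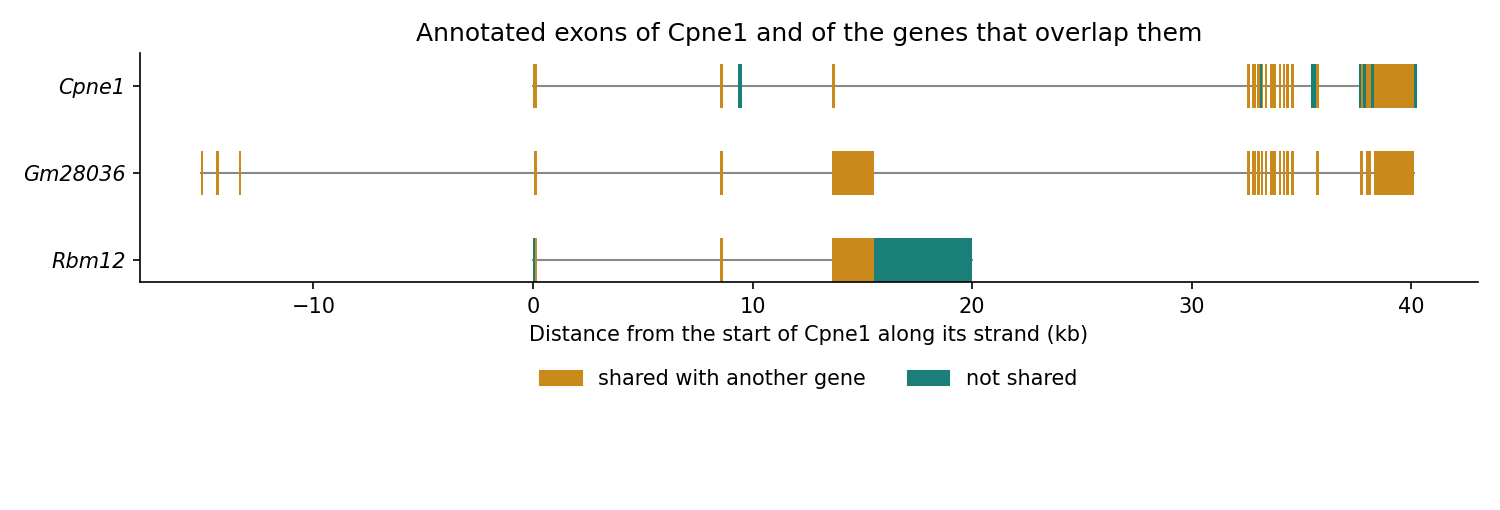
Annotated exons of Cpne1, Gm28036 and Rbm12, by distance in kb from the start of Cpne1 along its strand. Boxes are exon bases shared with another gene or not shared; 84.1% of the exon bases of Cpne1 and all of those of Gm28036 are shared.

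The remaining copines of the table were at or close to 0. Cpne4, Cpne6 and Cpne7 had 0 counts in all 12 libraries, which allows up to 0.155 CPM in the shallowest library if counts are independent. Where both mates of a fragment are counted, this limit is too low. Cpne6 is best known from neurons. Cpne5 had 2 counts in each of 2 old libraries and of 1 young library, and 0 counts elsewhere. Cpne9 had 2, 0, 2, 0, 2 and 6 counts in old replicates 1 to 6, and 0, 2, 4, 0, 0 and 0 counts in young replicates 1 to 6. All counts of Cpne5 and Cpne9 were even, as counting both mates of a fragment gives. The paralogues were told apart by sequence, since no 50-base stretch of a Cpne1, Cpne2, Cpne3 or Cpne8 transcript occurs in a transcript of another copine. Stretches found in any other gene made up 4.40% for Cpne8, 1.47% for Cpne3 and 0% for Cpne2.

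The ratio of Cpne8 to its paralogues needs no scaling between libraries. Cpne8 was chosen from this contrast, while Cpne2 and Cpne3 differed little and Cpne1 added few counts. The ratio therefore separates the ages much as Cpne8 itself does, and it is given as a description, not as further support. Per 1000 counts of Cpne1, Cpne2 and Cpne3 together, Cpne8 had 34.8, 43.6, 41.2, 39.6, 21.2 and 39.0 counts in old replicates 1 to 6. It had 4.72, 9.06, 16.5, 6.53, 2.39 and 9.11 counts in young replicates 1 to 6. The mean was 36.6 ± 8.08 in old and 8.06 ± 4.89 in young libraries (SD, n = 6 each), a log2 difference of 2.39 between mean log2 ratios, where the SD within groups was 0.727. Against Cpne2 alone the ratio was 73.0 ± 17.2 per 1000 counts in old and 15.3 ± 9.94 in young libraries, and against Cpne3 alone it was 74.6 ± 19.6 in old and 17.6 ± 10.4 in young libraries. The counts of Cpne2 per count of Cpne3 overlapped between the ages, at 0.803 to 1.38 in old and 0.935 to 1.83 in young libraries.

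**Figure D3:**
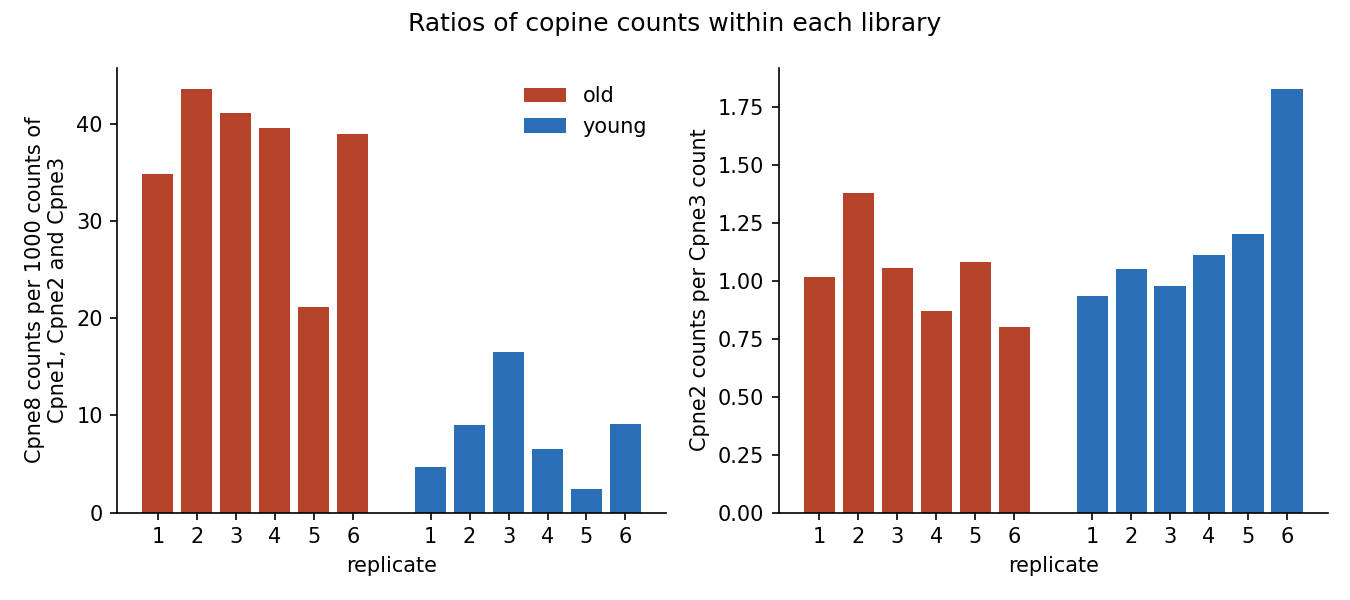
Ratios of copine counts in each library, old replicates left of young ones, on linear axes from 0. The left panel shows Cpne8 per 1000 counts of Cpne1, Cpne2 and Cpne3 (21.2 to 43.6 in old, 2.39 to 16.5 in young), and the right panel shows Cpne2 per count of Cpne3, highest in young replicate 6 at 1.83.

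Cpne2 and Cpne3 moved in opposite directions from library to library within each age. Their log2 CPM had a Pearson r of -0.79 over the 12 libraries (permutation p = 0.0024, adjusted p = 0.0072 over 6 relations) and a Spearman rho of -0.64 (permutation p = 0.029). The r was -0.84 within old libraries (exact permutation p = 0.046) and -0.95 within young libraries (exact permutation p = 0.018, n = 6 each). The exact p-values within ages, here and below, were not adjusted for the 6 relations tested in each age. Without old replicate 2 and young replicate 6, the libraries farthest from the median of Cpne2, it was -0.44, so the relation rests in good part on these libraries. Both were also the libraries with the highest level of 32 cell cycle genes, whose mean log2 CPM was 6.02 in old replicate 2 and 6.67 in young replicate 6, against 3.95 to 5.49 in the other old and 4.23 to 5.13 in the other young libraries. Against the cell cycle level, Cpne2 had r = 0.76 (permutation p = 0.0079, adjusted p = 0.016) and rho = 0.41 (permutation p = 0.19), and r was 0.0051 without the same pair of libraries. Cpne3 had r = -0.79 (permutation p = 0.0014, adjusted p = 0.0072) and rho = -0.70 (permutation p = 0.013), and r was -0.48 without the pair. The relation of Cpne2 to the cell cycle level thus did not hold without them. For Cpne2, r was 0.72 within old (exact permutation p = 0.11) and 0.81 within young libraries (exact permutation p = 0.12). For Cpne3, r was -0.85 within old (exact permutation p = 0.031) and -0.82 within young libraries (exact permutation p = 0.12, n = 6 each). The Spearman coefficient within young libraries was 0.03 for Cpne2 and -0.03 for Cpne3, so the values of r there rest on replicate 6. All these tests were two-sided.

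The groups of Cpne8 stand apart, so r is given within ages, and against the cell cycle level it was 0.46 in old (exact permutation p = 0.35, rho = 0.37) and 0.46 in young libraries (exact permutation p = 0.38, rho = 0.77, n = 6 each). With the mean level of these genes added as a covariate, the log2 fold change was 2.32 for Cpne8, 0.03 for Cpne2 and 0.13 for Cpne3. With old replicates 2 and 3 and young replicate 6, the libraries of highest cell cycle level, left out, it was 2.18, 0.01 and 0.18. With all libraries and no covariate, the log2 fold change was 2.24 for Cpne8, -0.01 for Cpne2 and 0.17 for Cpne3. The part of the cell cycle level in the difference of Cpne8 was not tested. Against Cpne2 and Cpne3, r of Cpne8 lay between -0.06 and 0.13 within ages.

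**Figure D4:**
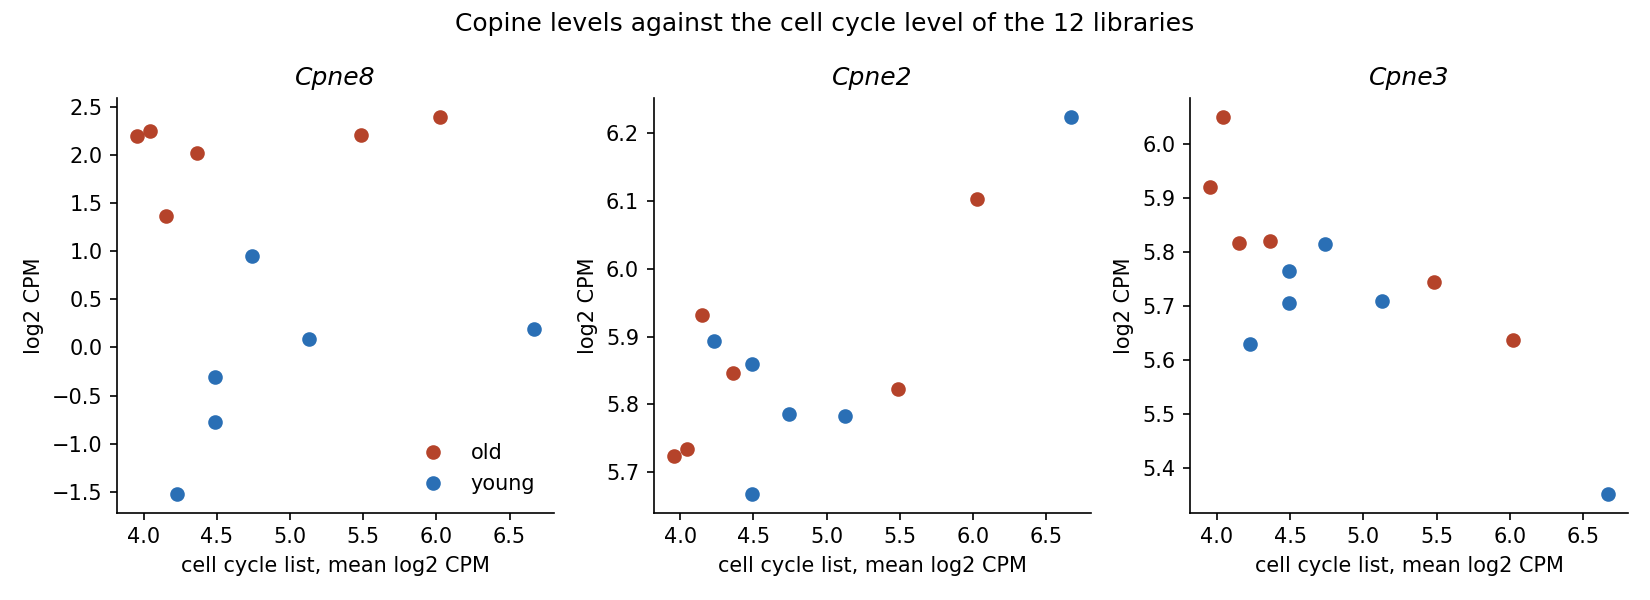
Log2 CPM of Cpne8, Cpne2 and Cpne3 against the mean log2 CPM of 32 cell cycle genes, 1 point per library (6 old, 6 young). The library farthest right is young replicate 6 (6.67), where Cpne2 is highest and Cpne3 lowest, and old points lie above all young points for Cpne8.

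The summed levels of the marker lists of other cell types overlapped between the ages, though single genes carry much of a sum. The summed level of 11 neutrophil markers was 126 to 236 CPM in old and 72.2 to 224 CPM in young libraries, and that of 10 monocyte and progenitor markers was 45.5 to 97.0 CPM in old and 45.9 to 82.3 CPM in young libraries. For 8 dendritic cell markers it was 26.9 to 90.7 CPM in old and 29.1 to 51.3 CPM in young libraries, and for 8 osteoclast markers 148 to 443 CPM in old and 155 to 212 CPM in young libraries. For 11 lymphoid markers it was 1.36 to 22.2 CPM in old and 2.34 to 3.84 CPM in young libraries. The lymphoid median was 2.73 CPM in old and 2.69 CPM in young libraries, so the highest old value lay far above most. Cd79b reached at most 2.93 CPM in old libraries, so other lymphoid genes made up most of that value. For 10 mast cell and erythroid markers the sum was 21.5 to 52.2 CPM in old and 26.6 to 44.1 CPM in young libraries. For 10 stromal and endothelial markers it was 21.3 to 51.0 CPM in old and 25.4 to 52.3 CPM in young libraries. Other marker genes of these cell types had counts, and 1 gene of each of 4 lists (Calcr, Pax5, Hbb-bs and Col3a1) had 0 counts in all 12 libraries.

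Gene by gene, the monocyte and neutrophil lists had positive medians, with no gene past the test. The 5 tested monocyte and progenitor markers had a median log2 fold change of 0.53 (3 positive) and the 8 tested neutrophil markers one of 0.39 (7 positive), against -0.01 over all genes, of which 47.5% were positive. The medians were -0.06 for 14 macrophage (4 positive), -0.02 for 5 dendritic cell (2 positive), 0.12 for 5 osteoclast (4 positive), 0.21 for 3 mast cell and erythroid (3 positive) and -0.05 for 3 stromal and endothelial markers (1 positive), and -0.39 for the 1 lymphoid marker tested. In these lists 0 genes were called by edgeR or DESeq2, which called 0.0158% and 0.0931% of all genes, so nothing is read from 0 calls in lists this short. At an unadjusted p below 0.05 there was 1 higher macrophage, monocyte and dendritic cell marker each and 1 lower macrophage and dendritic cell marker each. Over all genes tested by edgeR, 3.23% were higher and 2.24% lower at that limit. Ly6c2, a marker of inflammatory monocytes, had a log2 fold change of 2.31 (edgeR adjusted p = 0.77), close in size to that of Cpne8. It was at 22.5 CPM in old replicate 6 and at 0.744 to 1.07 CPM in the other old libraries, and at 0.662 to 1.502 CPM in young libraries, so 1 library sets its old mean. Without old replicate 6 the log2 fold change of Cpne8 was 2.21. The most abundant monocyte marker, Ccr2, was at 35.0 ± 6.33 CPM in old and 38.1 ± 15.2 CPM in young libraries, and the most abundant neutrophil marker, Csf3r, was at 136 ± 35.3 CPM in old and 121 ± 46.2 CPM in young libraries (SD, n = 6 each). The osteoclast marker Atp6v0d2 was at 144 ± 97.8 CPM in old and 97.8 ± 22.3 CPM in young libraries. Pf4 of megakaryocytes was at 33.0 ± 10.3 CPM in old and 33.0 ± 5.82 CPM in young libraries, and Kdr of endothelial cells was at 31.9 ± 11.2 CPM in old and 33.0 ± 9.53 CPM in young libraries. The B cell gene Cd79b was at 1.98 ± 0.722 CPM in old and 2.60 ± 0.592 CPM in young libraries. The part of these cell types in the level of Cpne8 was not tested.

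The genes near the members were examined because position played no part in choosing them. Within 500 kb of Cpne8 lie 17 other genes, of which 3 passed the filter and 0 passed an edgeR adjusted p of 0.05, with 0 by DESeq2, and 1 was lower at an unadjusted p below 0.05. Alg10b, a glucosyltransferase that completes the sugar precursor of protein glycosylation, was at 31.5 ± 4.73 CPM in old and 27.1 ± 2.66 CPM in young libraries, with a log2 fold change of 0.22 (edgeR adjusted p = 0.77). Abcd2, a peroxisomal fatty acid transporter, was at 26.0 ± 2.60 CPM in old and 23.2 ± 5.69 CPM in young libraries, with a log2 fold change of 0.17 (edgeR adjusted p = 0.80). The pseudogene Rpl31-ps8, which may share reads with Rpl31 and so is uncertain, was at 2.54 ± 0.611 CPM in old and 3.55 ± 0.315 CPM in young libraries (SD, n = 6 each), with a log2 fold change of -0.48 (edgeR adjusted p = 0.77). None of the 3 had a log2 fold change as large as that of Cpne8. As Cpne8 was chosen from this contrast and ranked 3rd of 12620 genes, nothing is read from this. Near Cpne2, 21 of 46 genes passed the filter and 0 were called by edgeR or DESeq2, with 1 higher at an unadjusted p below 0.05. Near Cpne3 (5 of 14 genes) and Cpne1 (21 of 51 genes), 0 were called by either tool and 0 had an unadjusted p below 0.05. Over all genes, edgeR called 0.0158% and DESeq2 0.0931%, so nothing is read from 0 calls in sets this small. At an unadjusted p below 0.05, 3.23% of all genes were higher and 2.24% lower.

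Over all genes, edgeR's quasi-likelihood test called 2 genes higher in old macrophages at an adjusted p of 0.05 (0.0158% of 12620) and 0 lower (0%). These were Bmpr1a, which encodes a receptor of BMP signals, and Gdf3, which encodes a ligand of the TGF-beta superfamily. Without adjustment, 407 genes (3.23%) had a p below 0.05 and were higher in old macrophages, and 283 genes (2.24%) were lower. DESeq2 called 15 of 16110 genes with an adjusted p (0.0931%), and Cpne8 was among those 15 and not among the 2 of edgeR. As Cpne8 was chosen from this contrast, nothing is read from either count for it.

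No gene of the other families of calcium and phospholipid binding proteins, or of the reported partners of copines, passed the test between the ages. As edgeR called only 0.0158% of all genes, lists of this size would rarely hold a called gene. Annexins bind membranes in a calcium-dependent way through a fold of their own. Of 12 annexin genes 9 were tested, with 0 called by edgeR or DESeq2, 1 higher at an unadjusted p below 0.05 and a median log2 fold change of 0.03, against -0.01 over all 12620 genes. Anxa5, the most abundant, was at 927 ± 43.3 CPM in old and 890 ± 57.8 CPM in young libraries (edgeR adjusted p = 0.83). Anxa11 was at 32.6 ± 2.25 CPM in old and 28.8 ± 1.85 CPM in young libraries (edgeR adjusted p = 0.77).

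Proteins of membrane traffic that carry C2 domains, such as synaptotagmins, were tested for 12 of 40 genes, with 0 called by edgeR or DESeq2, 3 higher at an unadjusted p below 0.05 and a median of 0.0068. Syt3, a synaptotagmin, was at 1.10 ± 0.322 CPM in old and 0.683 ± 0.134 CPM in young libraries (edgeR adjusted p = 0.77), and Esyt1, a tether between the endoplasmic reticulum and the plasma membrane, was at 556 ± 46.9 CPM in old and 554 ± 63.7 CPM in young libraries (edgeR adjusted p = 0.99). Enzymes and regulators with C2 domains were tested for 33 of 44 genes, with 0 called by edgeR or DESeq2, 1 higher at an unadjusted p below 0.05 and a median of 0.03. The lipid kinase gene Pik3c2a was at 10.8 ± 6.14 CPM in old and 6.15 ± 2.53 CPM in young libraries (edgeR adjusted p = 0.77). Prkcd, which encodes protein kinase C delta, was at 569 ± 38.1 CPM in old and 563 ± 86.5 CPM in young libraries (edgeR adjusted p = 0.97).

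Of 8 genes whose products have been reported to bind a copine, 7 were tested and 1 had a positive log2 fold change, with 0 called by edgeR or DESeq2, 1 lower at an unadjusted p below 0.05 and a median of -0.11. Cops5, a subunit of the COP9 signalosome, was at 61.1 ± 3.95 CPM in old and 70.7 ± 11.1 CPM in young libraries (edgeR adjusted p = 0.77). Rack1, a ribosome-bound scaffold, was at 979.7 ± 74.6 CPM in old and 1057 ± 51.4 CPM in young libraries (edgeR adjusted p = 0.77). NF-kB subunits and target genes, the set downstream of the reported action of Cpne1, had 21 of 22 genes tested, with 0 called by edgeR or DESeq2, 1 higher at an unadjusted p below 0.05 and a median of 0.0018. The subunit gene Rel was at 28.5 ± 6.89 CPM in old and 22.1 ± 3.64 CPM in young libraries (edgeR adjusted p = 0.77), and the target Cd83 was at 153 ± 42.2 CPM in old and 146 ± 50.2 CPM in young libraries (edgeR adjusted p = 0.95). For the cell cycle list of 32 genes, 0 were called by edgeR or DESeq2, 0 had an unadjusted p below 0.05 and 1 had a positive log2 fold change, against 47.5% of all genes, with a median of -0.30. Young replicate 6 stood apart for this list, at a mean log2 CPM of 6.67 against 4.23 to 5.13 in the other young libraries.

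The genes whose pattern was most like that of Cpne8 over the 12 libraries included Lrig3 (Pearson r = 0.96), Bmpr1a (0.94), Clec1a (0.92) and Nadk2 (0.90). Lrig3 encodes a membrane protein with leucine-rich repeats, Clec1a a C-type lectin receptor and Nadk2 the mitochondrial NAD kinase. The libraries share a culture protocol and fall into age groups that also differ in depth, so these values are a description. Lrig3 was at 1.36 to 1.69 CPM in old and 0.346 to 0.970 CPM in young libraries. Bmpr1a was at 13.8 ± 1.71 CPM in old and 0.786 ± 0.321 CPM in young libraries (SD, n = 6 each), and Clec1a was at 3.10 ± 0.586 CPM in old and 1.28 ± 0.520 CPM in young libraries. Among young libraries, replicate 3 was the highest for Cpne8, Bmpr1a (1.31 CPM) and Clec1a (2.32 CPM), and replicate 5 was the lowest for Cpne8, Bmpr1a (0.433 CPM) and Lrig3 (0.346 CPM). The order was not the same throughout, as young replicate 6 was the highest for Lrig3 (0.970 CPM) and the lowest for Clec1a (0.970 CPM). Old replicate 2, the highest old library for Cpne8, was the 5th of 6 for Lrig3 and for Bmpr1a. With each age's mean taken out, r with Cpne8 was 0.86 for Lrig3, 0.81 for Bmpr1a, 0.62 for Clec1a and 0.86 for Nadk2. Lrig3 is on chromosome 10, Bmpr1a on 14 and Clec1a on 6. Nadk2 is on 15, where Cpne8 lies too, though not within 500 kb of it.

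The genes most like Cpne2 and Cpne3 were other ones. For Cpne2 they were Acsf3, a mitochondrial acyl-CoA synthetase (r = 0.97), 2310061I04Rik (0.95), Enkd1 (0.93), Cenpt, a kinetochore protein (0.93), and Ints1, a subunit of the Integrator complex (0.92). Of these, Acsf3, Enkd1 and Cenpt lie on chromosome 8, as Cpne2 does, though not within 500 kb of it. For Cpne3 they were Arid4b (0.99), Tet3, which oxidises methylated cytosine (0.99), the RNA receptor gene Tlr8 (0.99), Ep300, a histone acetyltransferase (0.98), and the transcription factor gene Zeb2 (0.98). With each age's mean taken out, r stayed between 0.92 and 0.98 for the 5 genes of Cpne2 and between 0.98 and 0.99 for those of Cpne3. For each of these 10 genes the edgeR adjusted p between the ages was 0.77 or higher. Tlr8 was at 76.5 ± 38.1 CPM in old and 41.5 ± 18.4 CPM in young libraries, and Acsf3 was at 11.7 ± 2.38 CPM in old and 12.7 ± 3.01 CPM in young libraries (SD, n = 6 each).

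The fold changes of the members kept their place under each way of processing that was tried. Over 24 alternatives in scaling, filter, tool, covariate and libraries, the log2 fold change was 2.05 to 2.58 for Cpne8, -0.06 to 0.07 for Cpne2 and 0.11 to 0.21 for Cpne3. The lowest value for Cpne8 came without young replicate 5 and the highest without young replicate 3, the lowest and the highest young library for this gene.

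**Figure D5:**
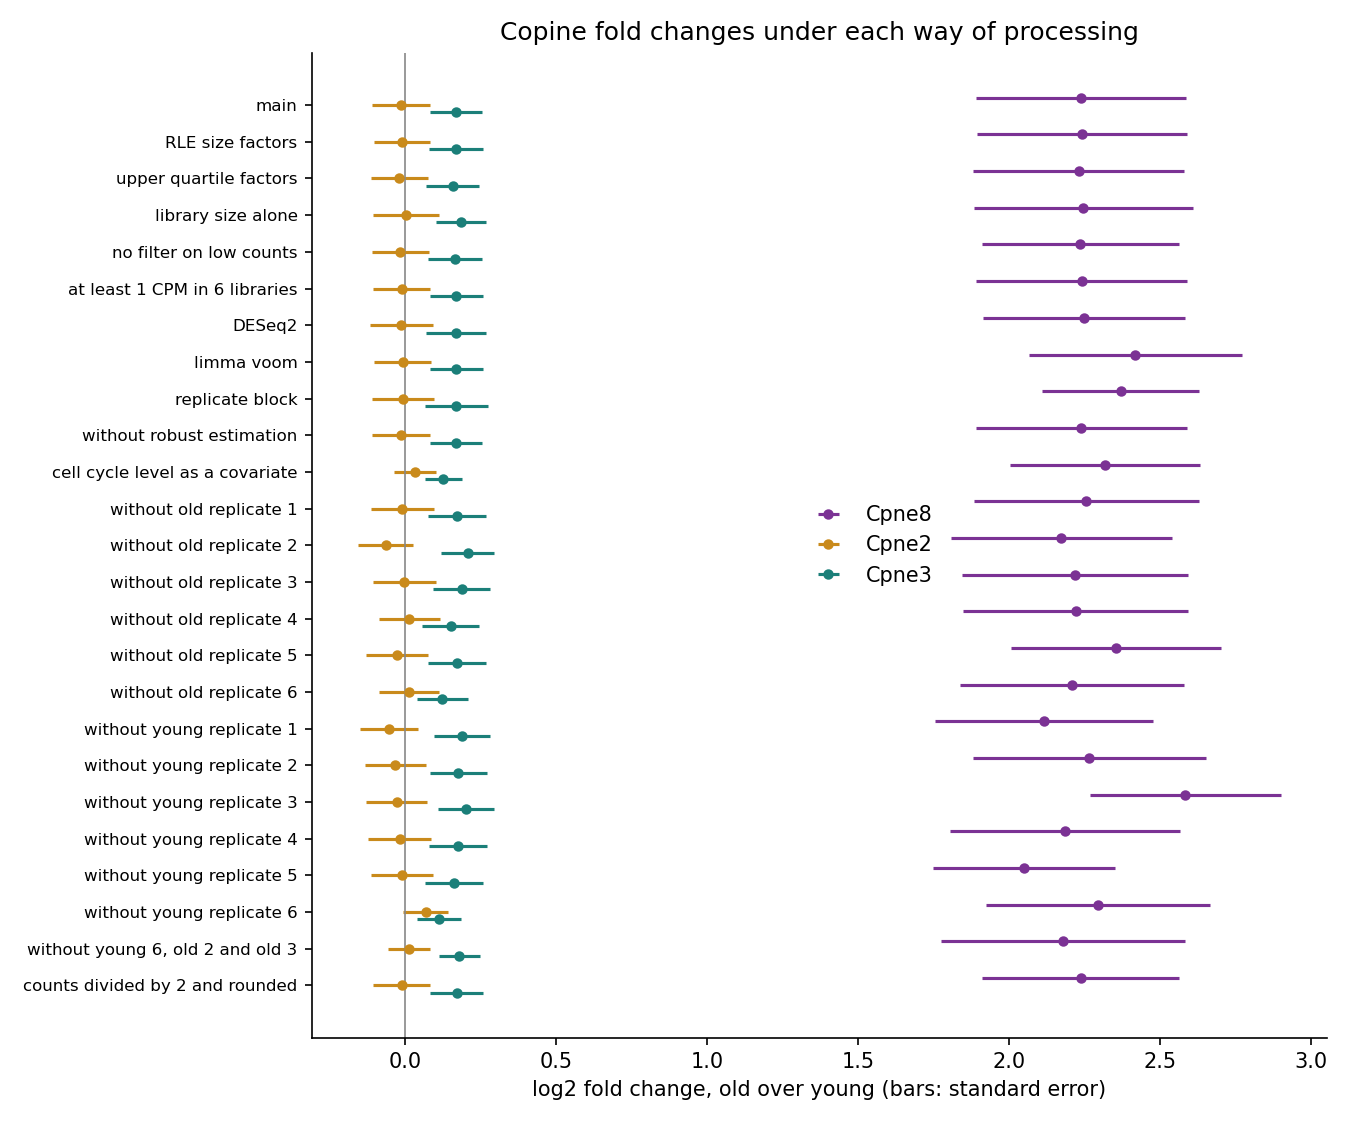
Log2 fold change, old over young, of Cpne8, Cpne2 and Cpne3 for the fit as reported and 24 alternatives (rows), with bars of 1 standard error. Cpne8 stays between 2.05 and 2.58, Cpne3 between 0.11 and 0.21, and Cpne2 on both sides of 0.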

How the data were processed

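Libraries were made with the TruSeq RNA v2 kit, which keeps no strand, from TRIzol RNA of M-CSF cultures, per the labels' protocols. The authors deposited whole, unnormalised counts per gene, made with featureCounts 1.6.0 against Ensembl release 100 of GRCm38, per the file headers. The recorded command counts neither pairs as one fragment nor multiply aligned reads, and it uses no strand. Per the submitters' processing notes, STAR, FastQC and the build mm10 were used.

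The test was that of edgeR 4.0.16 in R 4.3.3 (TMM factors, filterByExpr, robust quasi-likelihood F test, two-sided, Benjamini-Hochberg adjustment over all 12620 genes), checked on simulated data. CPM used TMM factors, and log2 CPM a prior count of 2. Alternatives were other scalings and filters, DESeq2 1.42.0, limma 3.58.1 voom, a replicate block, a cell cycle covariate and libraries left out. Symbols were found for 55141 of 55401 IDs. Exon overlaps came from the annotation columns of the table, and transcripts from GENCODE M21 of the same build. Correlations were tested with 100000 permutations, or exactly within ages (Python 3.11.15, SciPy 1.17.1). Confidence limits and floors (3 counts) cover counting error only and take counts as independent, which mates counted separately are not. The labels do not say whether old and young libraries of the same replicate number belong together, and the main fit did not pair them.

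The members and the gene lists were chosen with earlier results of these data known. Named beside the members were the other copines, tested genes near Cpne8, genes with exons over those of a member, the 5 genes most like each tested member, the most abundant gene and the gene of lowest p in each list of copine biology, and the genes called. Marker lists are given as sums and counts, with a few of their genes. One of the genes most like Cpne8 is not reported here.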

Additional observations from a re-analysis of the deposited data

Results flagged for a closer look

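In groups of 6 libraries, a value was singled out where the gap to its nearest neighbour exceeded Dixon's 95% limit for its share of the group's range. Of 112 groups examined, 22 held such a value. Chance gives about 1 in 20 independent groups, and these are not independent. Some of the genes were taken for moving with a copine, and 1 library can stand apart for several genes.

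Of these, 9 came from young replicate 6. Cpne2 was at 74.64 CPM there, and its other young values were 50.8 to 59.4 CPM. The counts of Cpne2 per count of Cpne3 were 1.831, against 0.935 to 1.20. The cell cycle mean log2 CPM was 6.669, against 4.23 to 5.13. Prkcd was at 397.9 CPM against 536.5 to 616 CPM, and Cops5 at 92.51 CPM against 61.5 to 69.99 CPM. Acsf3 was at 18.44 CPM against 9.63 to 12.6 CPM, Enkd1 at 12.21 CPM against 2.98 to 5.66 CPM, the cell cycle gene Ccne1 at 43.3 CPM against 6.14 to 9.78 CPM and Cenpt at 40.96 CPM against 15.2 to 19.9 CPM.

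Old replicate 2 stood apart for 3 genes whose pattern is like that of Cpne2. Acsf3 was at 16.19 CPM there, against 9.33 to 11.8 CPM in the other old libraries. The gene 2310061I04Rik was at 28.23 CPM against 21.6 to 23.0 CPM, and Enkd1 at 7.674 CPM against 3.63 to 5.02 CPM. Ccne1 was at 14.93 CPM there, against 5.47 to 7.87 CPM.

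In old replicate 6, Alg10b was at 40.41 CPM, against 27.4 to 31.6 CPM in the other old libraries, and Cpne9 at 0.3109 CPM, against 0 to 0.0934 CPM. Markers of other cells were high there too, with Ly6c2 at 22.54 CPM against 0.744 to 1.07 CPM, the dendritic cell gene Itgax at 79.53 CPM against 23.2 to 28.7 CPM and Atp6v0d2 at 334.9 CPM against 57.7 to 143 CPM. In young replicate 2, Ly6c2 was at 1.502 CPM against 0.662 to 0.890 CPM, and Cd79b at 3.756 CPM against 2.17 to 2.61 CPM. In young replicate 3, Clec1a was at 2.323 CPM (0.970 to 1.24 CPM in the rest of its age) and Cpne5 at 0.08766 CPM (0 in the rest). Cpne8 itself had no library singled out in either age.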

How the results depend on the processing

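Cpne8 kept its direction under all 24 alternatives, with a log2 fold change of 2.05 to 2.58 when each library was left out in turn, 2.25 by DESeq2 and 2.42 by limma voom. Cpne3 ranged from 0.11 to 0.21, and Cpne2 from -0.06 to 0.07, so the sign of Cpne2 is not settled. The ratio of Cpne8 to its paralogues ranged from 2.08 to 2.64 on the log2 scale over 16 alternatives. Cpne1 alone could not serve as its denominator, having counts of 0, and Cpne1 was removed by the filter, so its fold change was not followed. The number of genes called over the table was 2 in the fit as reported, 4 without a filter on low counts, 15 by DESeq2, 5 with the cell cycle covariate, and 1 to 5 with 1 library left out (1 without young replicate 4, 5 without young replicate 3). In no alternative was a member of the fixed lists other than the copine list, or a gene near a member, called by its tool. Calls of the copines themselves were not counted there. With the replicate block, for which same-numbered libraries correlated from -0.17 to 0.39, 4 genes were called and the log2 fold change was 2.37 for Cpne8, -0.01 for Cpne2 and 0.17 for Cpne3. Of the 5 genes most like each member by Pearson r, 1 was shared with the 5 by Spearman rho for Cpne8, 1 for Cpne2 and 3 for Cpne3, and the same numbers, 1, 1 and 3, were shared after removal of group means. The cause of these changes was not tested. Depth limits Cpne8 in young libraries (6 to 42 counts) and, with exon overlap, leaves Cpne1 without a readable level.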
